A study of Rattus norvegicus with 6 samples.

Results

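Nuclear hormone receptors are transcription factors that bind small lipophilic hormones and switch the expression of their target genes. The genes described here encode the estrogen receptor alpha (Esr1), the glucocorticoid receptor (Nr3c1), the thyroid hormone receptors alpha and beta (Thra, Thrb), the retinoic acid receptors alpha and gamma (Rara, Rarg), the retinoid X receptors alpha and beta (Rxra, Rxrb) and the vitamin D receptor (Vdr). They were chosen as rows of the deposited count table whose gene name equals one of these 9 symbols. Of the 9 names, 8 matched exactly 1 row each among the 32883 genes of the table. Nr3c1 matched no row and was not analysed here.

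The RNA came from GH4C1, an established rat pituitary cell line that makes prolactin and growth hormone, kept in Ham's F10 with horse and fetal calf serum, and labelled wild type. All cells were treated with psoralen, which crosslinks base-paired nucleic acid strands, and RNA was then pulled down with oligonucleotides to find RNAs in direct contact with the long noncoding RNA Neat1, on which nuclear paraspeckles are built. The groups differ in the oligonucleotides used, called oligo pool A and oligo pool B in the labels, and each has 3 libraries. The labels do not give the oligonucleotides of either pool, say whether a pool is a control, or say whether replicates were separate cultures, so p-values measure the spread between these libraries, which may be technical. Neat1 itself was not analysed here, nor were input or uncrosslinked RNA, so a difference in the RNA present in the cells and a difference in its retrieval cannot be told apart.

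In a pituitary cell of this lineage, the receptors sit close to hormone output. Thyroid hormone and glucocorticoid receptors act on the growth hormone gene, and the estrogen receptor acts on the prolactin gene. Thyroid hormone, retinoic acid and vitamin D receptors bind DNA mostly as heterodimers with a retinoid X receptor, whereas steroid receptors bind as homodimers and are held by Hsp90 chaperones before hormone arrives.

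Total counts per library lay between 1826390 and 3685899. Levels are given as counts and as TMM-scaled CPM, that is, counts scaled to a common library size after edgeR's trimmed-mean (TMM) correction. A difference is the log2 fold change of pool A over pool B, so a positive value is higher in pool A. The quasi-likelihood test of edgeR was used, and a gene was called past the threshold where its p was under 0.05 after Benjamini-Hochberg adjustment over all 11582 genes tested. Gene lengths were not used here, so the level of one receptor is not set against that of another. Lineage markers were present except for 1 of 6: prolactin (Prl) had between 909 and 2578 counts, growth hormone (Gh1) between 342 and 634 and the lineage factor Pou1f1 between 398 and 666, while Ghrhr was at 0 in every library. Of 11 markers of other pituitary cells, 6 stayed under 10 counts in every library, among them Tshb and Fshb at 0, and the 11 together summed to between 59.1 and 77.8 CPM of total counts in pool A and between 70.9 and 87.8 in pool B. The gonadotroph marker Lhb (log2 fold change -1.68) and the stem cell marker Sox2 (1.13) differed between the pools. Of 5 lineage markers tested, 2 passed the threshold, both higher with pool A: Prl (log2 fold change 0.83) and Trhr (0.96). The part of these differences in the results below was not tested.

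All 8 receptor transcripts were recovered with both pools, and none was too low to judge by the limits used, a place in the tested set and at least 10 counts in a library. The lowest count was 19, for Rxra, and the highest was 415, for Rxrb. Rarg was higher with pool A, whereas Thrb and Rxrb were higher with pool B. These 3 of 8 receptors passed the threshold, where 40.6% of all tested genes did. In pool A's favour 1 receptor was called against 18.6% of all genes, and in pool B's favour 2 were called against 22.0%. The count among receptors is thus near the background. The split depended on the scaling: with total counts alone 0 receptors were called for pool A and 2 for pool B, and with upper-quartile factors 1 was called for each.

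The differences were small in size. None of the 8 receptors had a log2 fold change of size over 1, that is, 2-fold, where 29.3% of all tested genes did. The median size of the log2 fold change was 0.21 for the receptors and 0.60 for all tested genes. The signed medians were -0.15 and 0.02. For 7 of the 8 receptors the 95% interval of the difference lay within 2-fold in either direction, and the exception was Rxra.

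**Figure D1:**
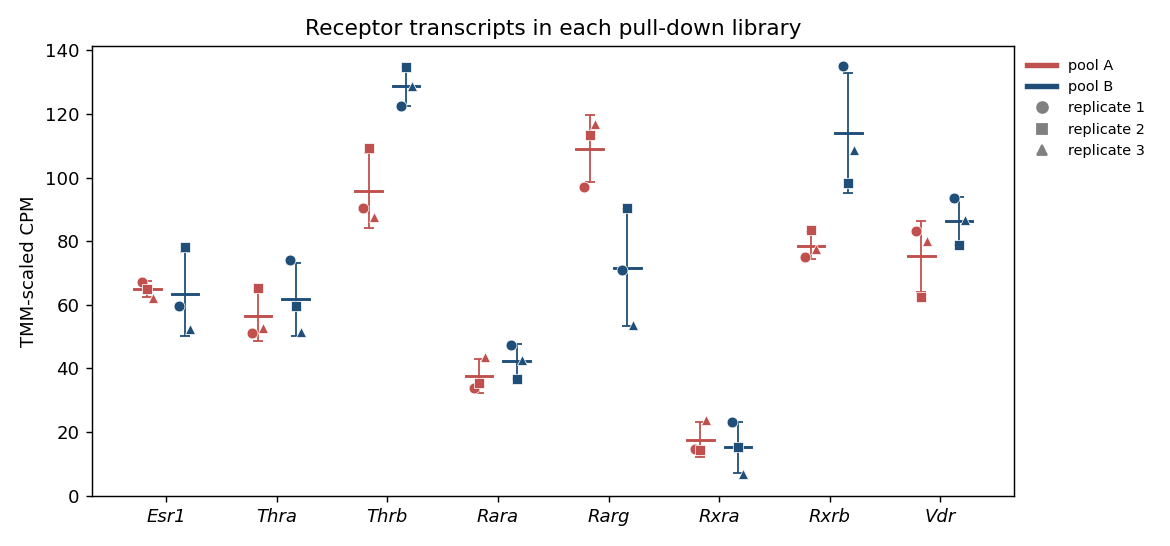
TMM-scaled CPM of the 8 receptor transcripts in each of the 6 libraries, with points for libraries, horizontal lines for the pool mean and bars for ± 1 SD (n = 3). Pool A (red) and pool B (blue) separate without overlap for Thrb, Rarg and Rxrb on this scale, and heights should be compared within a gene only, since gene length was not taken into account.

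Thyroid hormone receptors bind triiodothyronine and act on DNA with or without hormone. Thrb (ENSRNOG00000006649) encodes the beta receptor, whose second isoform is characteristic of the pituitary. It had 316, 249 and 283 counts with pool A and 377, 262 and 353 with pool B. In TMM-scaled CPM these were 90.4, 109 and 87.7 with pool A and 123, 135 and 129 with pool B, so every pool B library lay above every pool A library. Ranges of the receptors were apart in this way for 3 of 8 genes, where 50.0% of all tested genes showed it. The means were 95.8 ± 11.8 (SD, n = 3) and 128.7 ± 6.1 (SD, n = 3).

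The log2 fold change of Thrb was -0.42 ± 0.16 (SE), with a 95% interval from -0.74 to -0.10 and an edgeR adjusted p of 0.0317, or 1.34-fold in favour of pool B. The call was the least firm of the 3. It was lost under 6 of 14 alternatives, namely with upper-quartile factors (adjusted p 0.106), with no filter on low counts (0.0517), and when replicate 1 (0.105) or 3 (0.133) of pool A, or replicate 2 (0.0881) or 3 (0.0760) of pool B, was left out, within a range of 0.00614 to 0.133. The direction was the same in all 14.

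Thra (ENSRNOG00000009066) encodes the alpha receptor and, by splicing, a form that does not bind hormone. It had 179, 149 and 170 counts with pool A and 228, 116 and 141 with pool B. The TMM-scaled CPM were 51.2, 65.4 and 52.7 with pool A against 74.2, 59.7 and 51.4 with pool B, and the ranges overlapped. The log2 fold change of -0.13 ± 0.20 (SE) did not pass the threshold (edgeR adjusted p 0.639), and its 95% interval ran from -0.54 to 0.28. Without pool B replicate 1, the highest library, it was 0.026.

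Reads of Thra may not all be its own. In the RefSeq annotation of the GRCr8 assembly, Nr1d1 and Med24 overlap Thra on the opposite strand, and both have rows in the table. The libraries are labelled strand-specific, but whether strand was used in counting is not given in the sources used here, so reads of these genes cannot be told apart with certainty. Nr1d1, which encodes the heme-binding clock repressor REV-ERB alpha, had 196, 96 and 163 counts with pool A and 85, 100 and 122 with pool B. It received between 0.373 and 1.09 counts per count of Thra, the lowest in pool B replicate 1. Nr1d1 did not pass the threshold, at a log2 fold change of 0.29 ± 0.24 (SE; edgeR adjusted p 0.349). Med24, a subunit of the Mediator complex, had 185 ± 7 TMM-scaled CPM (SD, n = 3) in pool A against 68.4 ± 6.2 (SD, n = 3) in pool B. The resulting log2 fold change of 1.44 ± 0.15 (SE, edgeR adjusted p 1.33e-08) is opposite in sign to the value of Thra.

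Retinoic acid receptors bind all-trans retinoic acid. Rarg (ENSRNOG00000012499), the gamma receptor, had the only call in favour of pool A. It had 339, 258 and 377 counts with pool A and 218, 176 and 147 with pool B. The TMM-scaled CPM were 97.0, 113 and 117 with pool A and 70.9, 90.6 and 53.6 with pool B. On this scale all pool A libraries were above all pool B libraries, with the smallest gap between pool A replicate 1 and pool B replicate 2. In CPM of total counts, without TMM scaling, this pair overlapped, at 91.97 and 96.4.

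The means of Rarg were 109.0 ± 10.6 (SD, n = 3) and 71.7 ± 18.5 (SD, n = 3) TMM-scaled CPM. The log2 fold change was 0.62 ± 0.18 (SE), with a 95% interval from 0.24 to 0.997 and an edgeR adjusted p of 0.00827, or 1.54-fold in favour of pool A. The call was lost with total counts alone as scaling (log2 fold change 0.48, adjusted p 0.0506) and without pool B replicate 3, the lowest library (0.44, adjusted p 0.0837). Over the 14 alternatives the adjusted p ranged from 0.0019 to 0.0837.

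Rara (ENSRNOG00000009972), the alpha receptor, gave no such difference. It had 118, 81 and 141 counts with pool A and 146, 71 and 117 with pool B. The TMM-scaled CPM of 33.8, 35.6 and 43.7 with pool A overlapped those of 47.5, 36.5 and 42.7 with pool B. For Rara the difference was a log2 fold change of -0.16 ± 0.22 (SE), with a 95% interval from -0.62 to 0.30 and an edgeR adjusted p of 0.603. Leaving out a library moved it to between -0.27 (pool A replicate 3 left out) and -0.070 (pool B replicate 1 left out), and was -0.29 and -0.061 with total counts alone and upper-quartile factors. Rarb, the beta receptor and itself a classical retinoic acid target, had 1 count in pool A replicate 2 and 0 counts elsewhere, and was too low to judge. Where 0 was counted, up to 3 counts remain possible by counting error alone, or 0.814 to 1.64 CPM of total counts depending on the library.

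Retinoid X receptors are the shared partners of the thyroid, retinoic acid and vitamin D receptors. Rxrb (ENSRNOG00000000464) had 262, 190 and 250 counts with pool A and 415, 191 and 298 with pool B. In TMM-scaled CPM the pool A libraries lay close together at 74.97, 83.4 and 77.5, and the pool B libraries were all higher at 135, 98.3 and 109. The means were 78.6 ± 4.4 (SD, n = 3) and 114.0 ± 18.9 (SD, n = 3).

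The log2 fold change of Rxrb was -0.54 ± 0.17 (SE), with a 95% interval from -0.88 to -0.19 and an edgeR adjusted p of 0.0115, or 1.45-fold in favour of pool B. The call was lost under 1 of 14 alternatives, without pool B replicate 1, the highest library (log2 fold change -0.40, adjusted p 0.0912), within a range of 0.00259 to 0.0912. In the GRCr8 annotation, Slc39a7, a zinc transporter gene, overlaps Rxrb on the opposite strand. Slc39a7 had a log2 fold change of 0.04 ± 0.13 (SE, edgeR adjusted p 0.864). Col11a2, a collagen gene in the next row of the table, had one of -1.43 ± 0.17 (SE, edgeR adjusted p 7.16e-08), in the same direction as Rxrb. How far reads of Slc39a7 and Col11a2 enter the count of Rxrb was not tested. Rows next to other receptors differed between the pools too. Cdc6, before Rara, had a log2 fold change of -2.27 ± 0.24 (SE, edgeR adjusted p 7.43e-09), while Rara was not called. Col5a1, after Rxra, had -0.59 ± 0.14 (SE, edgeR adjusted p 0.0013), opposite in sign to Rxra.

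Rxra (ENSRNOG00000009446) had the fewest counts of the receptors described and the least precise value. It had 51, 33 and 77 counts with pool A and 71, 30 and 19 with pool B. The TMM-scaled CPM were 14.6, 14.5 and 23.9 with pool A and 23.1, 15.4 and 6.93 with pool B. The coefficient of variation was 30.5% in pool A and 53.4% in pool B, where counting error alone would give 13.7% and 15.8%. Rxra differed by a log2 fold change of 0.22 ± 0.39 (SE; edgeR adjusted p 0.691). The 95% interval, from -0.58 to 1.02, includes a 2-fold difference in favour of pool A. The sign turned to -0.043 without pool A replicate 3 and to -0.13 without pool B replicate 3, so no direction can be read for Rxra from these libraries. Rxrg, the gamma receptor, had at most 5 counts in any library and was too low to judge.

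Esr1 (ENSRNOG00000019358) encodes the estrogen receptor through which estradiol raises prolactin transcription in lactotrophs. It had 235, 148 and 201 counts with pool A and 183, 152 and 144 with pool B. The TMM-scaled CPM were 67.2, 65.0 and 62.3 with pool A, all inside the pool B values of 59.5, 78.2 and 52.5. Between the pools Esr1 differed by a log2 fold change of 0.05 ± 0.19 (SE), with a 95% interval from -0.35 to 0.44 and an edgeR adjusted p of 0.876. The sign turned to -0.093 with total counts alone and to -0.075 without pool B replicate 3. Libraries of pool A were close to each other for Esr1, with a coefficient of variation of 3.83%, against 21.0% in pool B, where counting error alone would give 7.17% and 7.91%. The value of pool A is thus below that of counting error and no sign of a low spread.

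Vdr (ENSRNOG00000054420) encodes the receptor for calcitriol, the active form of vitamin D. It had 291, 142 and 258 counts with pool A and 288, 153 and 238 with pool B. The TMM-scaled CPM were 83.3, 62.4 and 80.0 with pool A and 93.7, 78.7 and 86.8 with pool B, which overlap. Its log2 fold change came to -0.19 ± 0.18 (SE), with a 95% interval from -0.55 to 0.17 and an edgeR adjusted p of 0.421. The sign was the same under all 14 alternatives, but the size moved from -0.32 with total counts alone (adjusted p 0.182, the lowest) to -0.045 without pool A replicate 2, the lowest library. In CPM of total counts the Vdr ranges did not overlap.

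**Figure D2:**
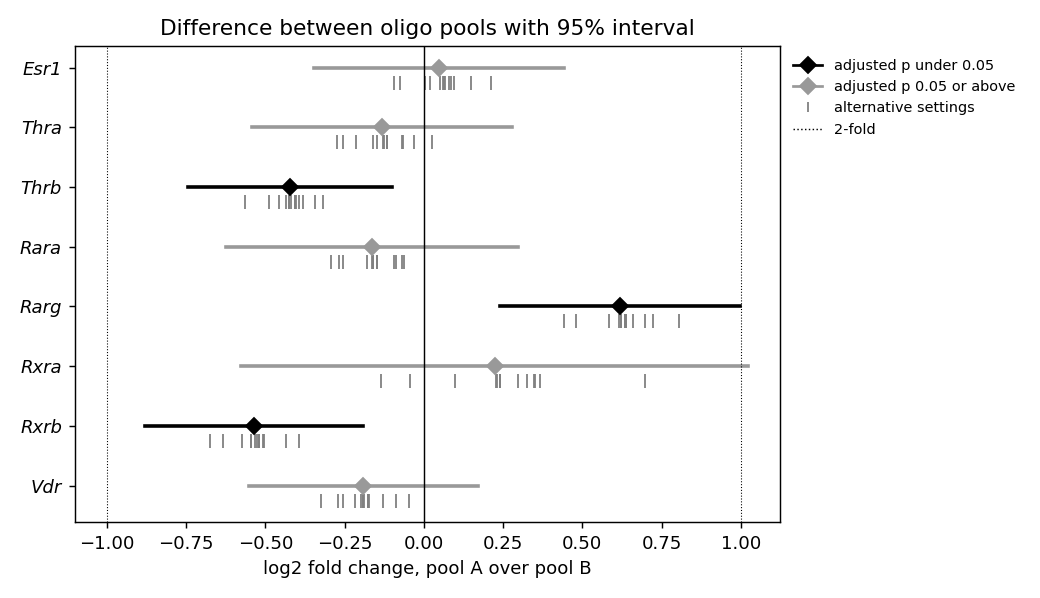
Log2 fold change of pool A over pool B for each receptor (diamonds) with its 95% interval (bars), and the values under 14 alternative settings (grey ticks). Rarg at 0.62 lies to the right of 0 and Rxrb at -0.54 and Thrb at -0.42 lie to the left, while the intervals of the other receptors include 0 and that of Rxra reaches past 2-fold (dotted line).

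Close relatives can be compared within a library, where scaling and gene length cancel between pools. The log2 ratio of the counts of 2 paralogs, with 0.5 added to each, was taken for 3 pairs. For Rara over Rarg it was -1.52, -1.67 and -1.42 with pool A and -0.58, -1.30 and -0.33 with pool B. Every pool A library was below every pool B library, and the means differed by -0.80. For Rxra over Rxrb it was -2.35, -2.51 and -1.69 with pool A and -2.54, -2.65 and -3.94 with pool B, a difference of 0.86. These ranges did not overlap either, but the gap between pool A replicate 2 and pool B replicate 1 was small. For Thra over Thrb it was -0.82, -0.74 and -0.73 with pool A and -0.72, -1.17 and -1.32 with pool B, with overlapping ranges and a difference of 0.31. Among single genes, 50.0% of those tested had TMM-scaled CPM ranges that did not overlap. The share over other gene pairs was not computed. The ratios reuse the counts behind the calls of Rarg and Rxrb, so they add no independent evidence.

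The two-sided exact permutation test gave p = 0.1 for the pairs Rara and Rarg and Rxra and Rxrb, which is the smallest value that 3 against 3 libraries allow, and p = 0.4 for Thra and Thrb. Adjusted over the 3 pairs by the Benjamini-Hochberg method, these exact p-values were 0.15, 0.15 and 0.4. Without pool B replicate 3 the difference for Rxra and Rxrb was 0.41 in place of 0.86, so its size rests on that library.

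**Figure D3:**
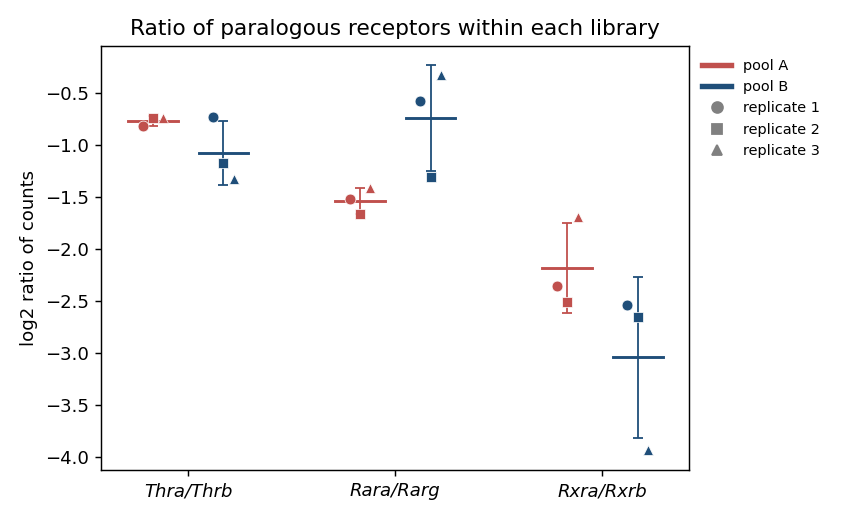
Log2 ratio of the counts of 2 paralogous receptors within each library, with points for libraries, lines for the pool mean and bars for ± 1 SD (n = 3). The pools are apart for Rara over Rarg, with pool A lower by 0.80, and for Rxra over Rxrb, with pool A higher by 0.86, and they overlap for Thra over Thrb. The ratios use the same counts as the calls of Rarg and Rxrb, and the share of other gene pairs set apart was not computed.

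Genes whose profiles over the 6 libraries were most like those of the called receptors were found among 10440 genes with symbols, by the Euclidean distance between log2 CPM centred on each gene's mean. For Rarg they were Arl6ip4 (distance 0.11), Mlxip (0.19) and Tmem184a (0.21). For Rxrb they were MAST1 (0.12), Gsk3b (0.12) and Dhx57 (0.13). For Thrb they were Camsap2 (0.15), Stard13 (0.15) and Prdm10 (0.15). None of these is a nuclear receptor. With 6 libraries that share the split into pools, small distances among many genes describe these libraries only.

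The other nuclear receptors of the rat give the setting of the receptors described here. Of 39 such genes, 20 were tested, 14 stayed under 10 counts in every library and 7 were at 0 in all. Past the threshold were 3 of the 20 (15.0%, where 40.6% of all tested genes were), all higher with pool B, and the median log2 fold change of the 20 was 0.21. That median was 0.080 with total counts alone, and 0.051 without pool A replicate 1 and 0.32 without pool A replicate 2. Nr2c2, an orphan receptor also called TR4, had 58.7 ± 4.2 TMM-scaled CPM (SD, n = 3) in pool A against 141.0 ± 7.5 (SD, n = 3) in pool B, which is a log2 fold change of -1.26 ± 0.16 (SE, edgeR adjusted p 3.13e-07). Rorb, a retinoid-related orphan receptor, and Nr1d2, the REV-ERB beta repressor of the clock, were higher with pool B as well, with log2 values of -1.22 ± 0.17 (SE) and -0.72 ± 0.21 (SE). In TMM-scaled CPM the Nr1d2 ranges overlapped, at 62.6 in pool A replicate 3 and 62.3 in pool B replicate 2. The call of Nr1d2 was lost without pool A replicate 2 (edgeR adjusted p 0.077) and without pool B replicate 3 (0.126).

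Among the steroid receptors outside the set, which were picked for description after their values were seen, the second estrogen receptor Esr2 had between 13 and 61 counts and a log2 fold change of -0.44 with a 95% interval from -1.30 to 0.43. The progesterone receptor Pgr had between 63 and 144 counts and one of -0.10, with an interval from -0.59 to 0.38. The mineralocorticoid receptor Nr3c2, the closest relative of the glucocorticoid receptor, had between 36 and 61 counts and one of 0.27, with an interval from -0.45 to 0.98. No difference was detectable for any of the 3 at this depth, and the interval of Esr2 does not exclude a 2-fold difference in favour of pool B.

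Steroid receptors reach their ligand-binding state in complexes of Hsp90, Hsp70 and cochaperones. All 17 chaperone genes listed were tested, of which 7 were higher in pool A and 2 in pool B (52.9% in all, against 40.6% of all tested genes), with a median log2 fold change of 0.33, or 0.20 with total counts alone. Hspa4, an Hsp70-type exchange factor, had 1272 ± 138 TMM-scaled CPM (SD, n = 3) in pool A against 298 ± 28 (SD, n = 3) in pool B, which is a log2 fold change of 2.10 ± 0.14 (SE, edgeR adjusted p 9.22e-13). Ptges3, the p23 cochaperone, Hsp90ab1, the constitutive cytosolic Hsp90, and Cdc37, its kinase-directed partner, had log2 fold changes of 1.40, 1.31 and 1.19. Fkbp5, an immunophilin that lowers the hormone affinity of the glucocorticoid receptor and is itself a classical target of it, went the other way. It had 237, 133 and 297 counts with pool A and 1750, 1306 and 1762 with pool B, which gives a log2 fold change of -3.09 ± 0.16 (SE, edgeR adjusted p 8.84e-15).

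Coactivators and corepressors carry receptor output to chromatin. Of 30 such genes 27 matched a row and 26 were tested, with 6 higher in pool A and 6 higher in pool B (46.2% in all, against 40.6%) and a median log2 fold change of 0.01. Prmt1, an arginine methyltransferase that acts as a coactivator, had 237 ± 30 TMM-scaled CPM (SD, n = 3) in pool A against 45.6 ± 6.8 (SD, n = 3) in pool B, which is a log2 fold change of 2.39 ± 0.17 (SE, edgeR adjusted p 4.14e-12). Ncoa4, known as a coactivator and as the receptor for ferritin breakdown, had one of 1.74 ± 0.18 (SE). Subunits of a corepressor complex of nuclear receptors were split: Hdac3 was higher with pool A by 0.76 ± 0.21 (SE), while Gps2 and Tbl1x were higher with pool B, at -1.04 ± 0.17 (SE) and -0.71 ± 0.15 (SE).

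The supply of ligand depends on transporters and enzymes that make or break down hormones. Most genes of this list were near the limit of detection: of 39, 38 matched a row, 21 stayed under 10 counts in every library, 13 were at 0 in all and only 10 were tested. Past the threshold were 2 genes in favour of each pool (40.0%, against 40.6%), with a median log2 fold change of -0.16. Where at least 10 counts were required of all 6 libraries, 1 was called for pool A and the median was -0.40. With a library left out, the median ranged from -0.67 to -0.18. Rdh14, a retinol dehydrogenase, had 20, 10 and 13 counts with pool A and 160, 157 and 205 with pool B, which gives a log2 fold change of -3.84 ± 0.29 (SE, edgeR adjusted p 2.04e-11). Rdh10, which makes retinal on the way to retinoic acid, had one of 0.59 ± 0.23 (SE, edgeR adjusted p 0.0403). Srd5a1, a steroid 5-alpha-reductase, had 25, 17 and 20 counts with pool A and 2, 0 and 2 with pool B. It passed the filter on low counts only through pool A. Its call was also made with no filter (edgeR adjusted p 0.000651), and its fold is not given. Hsd17b8 had a log2 fold change of -0.57 ± 0.22 (SE, edgeR adjusted p 0.0432). The calls of Rdh10 and Hsd17b8 were lost under 7 and 11 of 14 alternatives, with adjusted p-values up to 0.137 and 0.179.

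Of 24 textbook targets of these receptors, 16 were tested, with 3 called in favour of each pool (37.5%, against 40.6%), with a median log2 fold change of 0.00. With total counts alone 1 was called for pool A and the median was -0.14, and 1 was called for pool A without pool B replicate 3 and 1 for pool B without pool A replicate 2. Fkbp5, given above, belongs to this list too. Prl, the prolactin gene, had 751 ± 86 TMM-scaled CPM (SD, n = 3) in pool A against 424 ± 48 (SD, n = 3) in pool B, which is a log2 fold change of 0.83 ± 0.14 (SE, edgeR adjusted p 1.26e-05). Gh1, the growth hormone gene, had one of 0.18 with a 95% interval from -0.11 to 0.48 (edgeR adjusted p 0.331). Klf9, a factor induced by thyroid hormone and glucocorticoids, and Atp2a2, a calcium pump induced by thyroid hormone, were higher with pool B, at -0.75 ± 0.23 (SE) and -0.39 ± 0.15 (SE) on the log2 scale. Nfkbia, an inhibitor of NF-kappaB induced by glucocorticoids, had one of 0.80 ± 0.31 (SE), and Greb1, an estrogen-induced gene named after its values were seen, had one of 0.40 ± 0.13 (SE). The calls of Klf9, Atp2a2 and Nfkbia were lost under 1, 6 and 7 of 14 alternatives, with adjusted p-values up to 0.0677, 0.191 and 0.208.

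**Figure D4:**
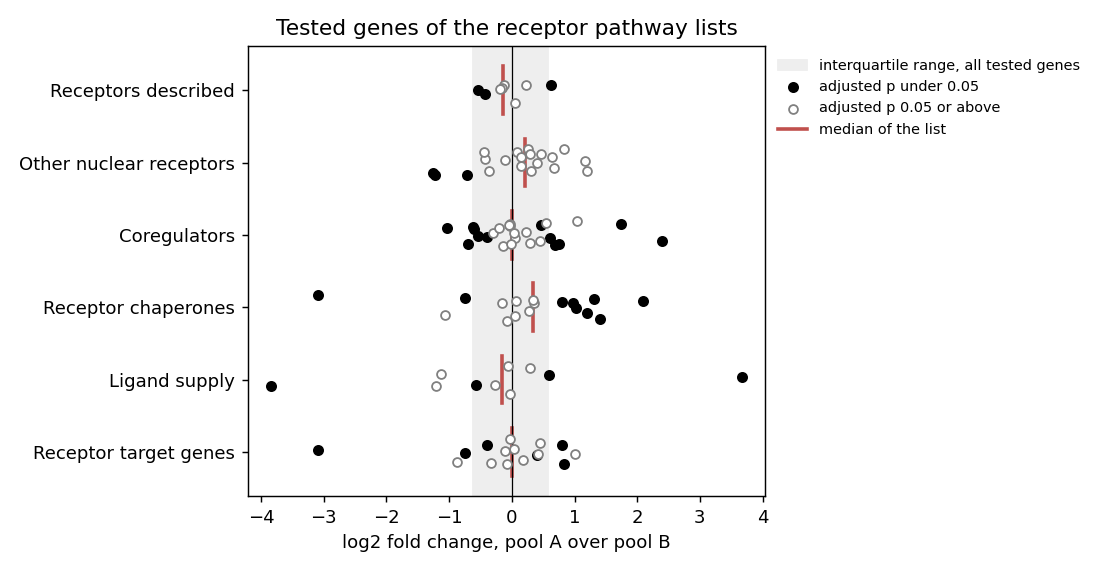
Log2 fold changes of pool A over pool B for the tested genes of each list (filled, past the threshold; open, not), with the list median in red and the interquartile range of all 11582 tested genes in grey. The 8 receptors lie between -0.54 and 0.62, while chaperones and ligand supply genes reach -3.09 and -3.84.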

How the data were processed

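The authors deposited 1 table of raw counts per Ensembl rat gene, whose values are whole numbers with totals that differ between libraries. STAR and featureCounts are named per the submitters' processing notes; versions, genome build, annotation and strand setting are not given in the sources used here. The deposited table also holds a signal column per pool, equal to the mean of its 3 counts, which was not used. Columns were matched to samples by title, and 0 columns of other samples were present.

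The pools were set against each other in edgeR 4.0.16 (R 4.3.3; TMM factors, filterByExpr by pool, quasi-likelihood test, pool as the only term, all 6 libraries). SEs come from the fold change and the F statistic, and 95% intervals from the moderated t distribution. Exact permutation tests were two-sided. The procedure was run on simulated counts with few changed genes and the same spread beyond counting error for all genes. These data differ in both, so the simulation checks the code and not the calls. Reads had no stated molecular identifiers, so floors cover counting error only.

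Receptors and lists were chosen with earlier results of these data known. From each list up to 5 genes were named, those past the threshold with the largest changes, ranges in CPM of total counts that did not overlap and a mean of at least 10 counts, and for called receptors the 3 genes of nearest profile (prior count 2). Alternatives were DESeq2 1.42.0 size factors or test, total counts, upper-quartile factors, 2 other filters, limma-voom (limma 3.58.1), a replicate block, a pseudocount of 1 for ratios, and leaving out each library. RefSeq names and overlaps are of GRCr8, in which all 8 receptors were found; no transcript sequence was used. Some members of the lists are not reported here by name, while the list counts cover all members.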

Additional observations from a re-analysis of the deposited data

How the results depend on the processing

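Of 112 refits of the 8 receptors, 98 gave the same sign and the same call, 9 lost the call (Thrb in 6, Rarg in 2 and Rxrb in 1) and 5 changed sign, none of them of a called receptor. The sign changes were those of Esr1 with total counts alone (-0.093) and, on leaving out single libraries, Esr1 without pool B replicate 3 (-0.075), Rxra without replicate 3 of pool A (-0.043) or of pool B (-0.13), and Thra without pool B replicate 1 (0.026). Across the libraries left out, Esr1 ranged from -0.075 to 0.21, Thra from -0.25 to 0.026, Rara from -0.27 to -0.070, Vdr from -0.27 to -0.045 and Rxra from -0.13 to 0.70. The genes named by rule from the lists and by nearest profile, but no other gene given with values, were refitted as well, and of these 419 refits 355 kept both, 51 lost a call, 13 gained one and 0 changed sign. The causes were not tested. Leaving out a library also lowers the number of libraries, and this was not separated from the influence of the library left out.

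Receptors higher with pool A numbered 0 with total counts alone, and those higher with pool B numbered 1 with upper-quartile factors and 1 with no filter. Leaving out a library gave 0 to 1 and 1 to 2, respectively. Over all genes 1856 to 2048 and 2194 to 2390 were called with a library left out. The median log2 fold change of all tested genes was -0.12 under total-count scaling and 0.12 under upper-quartile scaling, so these scalings shift every gene by about as much. It was 0.030 with DESeq2 size factors, 0.030 with the DESeq2 test, 0.065 with no filter, and 0.0076 to 0.044 over the libraries left out.

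In the lists, ligand supply genes higher with pool A numbered 1 with total counts alone, with no filter, with a minimum of 10 counts in each library and with the replicate block, and those higher with pool B numbered 1 with upper-quartile factors and with the DESeq2 test. Leaving out a library gave 1 to 2 in each direction, and 1 to 3 in each direction for the target genes, of which 1 was higher with pool A with total counts alone. Other nuclear receptors higher with pool A numbered 0 to 1, the 1 being without pool B replicate 1. The coregulator median was -0.13 with total counts and 0.11 with upper-quartile factors, and 0.018 to 0.063 over the libraries left out. The target gene median was -0.14, 0.10 and 0.11 with total counts, upper-quartile factors and no filter, and -0.080 to 0.13 over the libraries left out. The ligand supply median was -0.40 with that minimum, -0.28 with total counts, -0.023 with no filter, -0.056 with upper-quartile factors and -0.67 to -0.18 over the libraries left out. The median of the other nuclear receptors was 0.051 to 0.32 over the libraries left out.

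Differences in paralog ratios when a library was left out ranged from -1.08 to -0.59 for Rara over Rarg, from 0.41 to 1.11 for Rxra over Rxrb and from 0.18 to 0.48 for Thra over Thrb. The correlation across the pools of libraries' departures from their own pool mean was 0.041, -0.020 and 0.019 for replicate numbers 1, 2 and 3. With 3 libraries per pool and counting error in each departure, these values cannot settle whether the replicate numbers are pairs. With the replicate block no call of a receptor changed, and those of Atp2a2, Hsd17b8 and Rdh10 were lost (adjusted p 0.0514, 0.060 and 0.0543).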
